A study of Mus musculus with 2 samples.

Results

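The MIP-1 type CC chemokines examined here are Ccl3, Ccl4, Ccl5, Ccl6 and Ccl9. They were picked by symbol, 5 of the 17270 named genes in the deposited table, and their levels were compared between Ninj1 knockout (Ninj1-/-) and Ninj1 wild-type (Ninj1+/+) macrophages. Both genotypes were marrow cells of mice aged 6 weeks, taken from the leg bones, grown into macrophages with M-CSF for 7 days and then given lipopolysaccharide at 500 ng/ml together with interferon-gamma at 20 ng/ml. This combination gives classically activated macrophages. No unstimulated group was analysed here, so every value below describes activated cells. The sources used here do not say how the knockout allele was made, how many mice were used or whether cells were pooled. Each genotype was registered as 1 sample, and the table holds 2 columns for each. Nothing says whether these columns were separate mice, cultures or library preparations. The p-values therefore rest only on the spread between columns, pooled in part over genes, and that spread may be technical.

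MIP-1 stands for macrophage inflammatory protein 1. These small secreted proteins bind G-protein-coupled receptors on monocytes, T cells, natural killer cells, eosinophils and other leukocytes and draw those cells along a gradient. Ccl3 (MIP-1 alpha) and Ccl4 (MIP-1 beta) are closely related attractants that activated macrophages release together. Ccl3 and Ccl5 (RANTES) are ligands of Ccr1, and Ccl5 also binds Ccr3. Ccl9 (MIP-1 gamma) is a Ccr1 ligand, and Ccl6 (also called C10) is its close relative in rodents. Macrophages make Ccl3, Ccl4 and Ccl5 in response to bacterial products, through NF-kB and interferon regulatory factors, while Ccl6 and Ccl9 are known as products of resting and growth-factor-treated myeloid cells.

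All 5 genes lie on mm10 chromosome 11 within 138.9 kb, in the order Ccl5, Ccl9, Ccl6, Ccl3, Ccl4. Ccl5 (Entrez 20304) spans 83525778 to 83530518, Ccl9 (Entrez 20308) spans 83572919 to 83578636, Ccl6 (Entrez 20305) spans 83587882 to 83593087 and Ccl3 (Entrez 20302) spans 83647844 to 83649355, each on the minus strand. Ccl4 (Entrez 20303) spans 83662584 to 83664683 on the plus strand, 13.2 kb from Ccl3. Ccl3, Ccl4 and Ccl5 have 3 exons each and code for 92, 92 and 91 amino acids, whereas Ccl6 and Ccl9 have 4 exons each and code for 116 and 122. None of the 50-base stretches of the Ccl3, Ccl4, Ccl5 and Ccl6 transcripts occurs in a transcript of another annotated gene, so their reads are not shared with a copy at that length. In Ccl9, 2.0% of such stretches do. Ccl6 lies within the annotated span of the antisense transcript E230016K23Rik, with which it shares 0 exonic bases, and that transcript had 2 to 12 reads in any column.

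RefSeq start-region sequence (GRCm38.p6, 250 bases before the start site and 50 from it on) was found for 3 of the 5 genes. These are shown because Ccl3 is the member whose transcript level differed between genotypes, while Ccl6 and Ccl9 are a neighbouring pair at very different levels. Capitals mark matches to the searched motifs, on either strand.
Ccl3 (chr11:83649329-83649628, minus strand): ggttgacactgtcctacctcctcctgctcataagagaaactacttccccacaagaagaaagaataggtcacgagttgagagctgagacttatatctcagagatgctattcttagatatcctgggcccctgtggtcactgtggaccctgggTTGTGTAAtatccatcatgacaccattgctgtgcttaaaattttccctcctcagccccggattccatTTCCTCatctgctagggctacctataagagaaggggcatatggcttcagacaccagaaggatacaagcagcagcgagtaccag
Ccl9 (chr11:83578587-83578886, minus strand): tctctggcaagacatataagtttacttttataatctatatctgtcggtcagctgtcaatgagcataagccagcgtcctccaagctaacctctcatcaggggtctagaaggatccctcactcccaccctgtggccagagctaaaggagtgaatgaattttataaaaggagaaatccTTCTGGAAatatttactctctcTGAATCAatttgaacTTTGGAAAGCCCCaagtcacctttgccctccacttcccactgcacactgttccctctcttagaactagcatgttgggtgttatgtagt
Ccl6 (chr11:83593038-83593337, minus strand): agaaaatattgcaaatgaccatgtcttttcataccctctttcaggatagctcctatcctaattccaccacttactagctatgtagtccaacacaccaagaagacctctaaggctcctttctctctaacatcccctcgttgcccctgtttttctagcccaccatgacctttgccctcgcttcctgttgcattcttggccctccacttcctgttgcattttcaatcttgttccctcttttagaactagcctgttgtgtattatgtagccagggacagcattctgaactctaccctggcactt

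The Ccl3 window held 1 match to the C/EBP letters TTNNGNAA, starting at position -100 from the start site, and 1 match to the PU.1 core GAGGAA, on the reverse strand at -33. The Ccl9 window held the C/EBP letters at -75 and -38, the AP-1 letters TGANTCA at -53, which read alike on both strands, and the NF-kB letters GGGNNNNNCC on the reverse strand at -35, overlapping the C/EBP match at -38. The Ccl6 window held no match to any of these or to the interferon-response letters GAAANNGAAA and the STAT letters TTCNNNGAA, neither of which was matched in the other windows. Among all 32851 RefSeq windows of this length, matches were found in 50.8% for the NF-kB letters, 40.7% for C/EBP, 28.3% for PU.1, 8.3% for the STAT letters, 7.8% for AP-1 and 3.4% for the interferon-response letters. Ccl6 and Ccl9 resembled each other around the start site. Local alignment paired positions -59 to 15 of Ccl6 with positions -18 to 49 of Ccl9 at 59 identical bases of 74 alignment columns, while the best local match of Ccl3 with Ccl6 covered only 12 columns and that with Ccl9 only 11.

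The 3' untranslated ends also differed between the genes. AU-rich repeats of the letters ATTTA, to which mRNA decay factors such as the product of Zfp36 bind in cytokine transcripts, occurred 5 times in the 409 bases of Ccl3, 2 times in the 302 bases of Ccl4, 0 times in the 199 bases of Ccl5, 4 times in the 943 bases of Ccl6 and 5 times in the 2465 bases of Ccl9. All 5 copies in Ccl3 fell within 200 bases of each other. Of 17473 genes whose 3' end was at least 200 bases long, 1.96% had that many in any such window, and 42.8% had at least the 2 of Ccl4. Matches were counted on the transcript strand, where neighbouring copies may overlap by an A. The 30-base stretch richest in the motif is given for Ccl3, whose copies lie close together, with ATTTA in capitals.
Ccl3 (bases 154 to 183 of the 3' end): attttATTTAATTTAatcctattggtttaa

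The columns held 46798381 to 62684262 reads assigned to genes. Levels are given as normalized counts, the deposited unit, in which each read was divided by a size factor of its column. Ninj1 averaged 3802 ± 401 normalized counts in knockout columns and 30004 ± 1632 in wild-type columns (SD, n = 2 columns each), or 12.7% of wild type. The 8 macrophage markers summed to 1046067 and 1063995 in knockout columns against 974636 and 1056163 in wild-type columns. This sum rests largely on Adgre1, Lyz2 and Cd14 (242636, 282215 and 293188 in knockout column 1). It therefore cannot show whether the other markers matched. In the test described below, 2 of the 8, Mertk and Itgam, were called lower in the knockout. Wild-type column 1 stood apart for short transcripts. Among 276 genes that averaged at least 1000 normalized counts and had transcripts of at most 1000 bases, wild-type column 2 exceeded column 1 by a median of 0.17 on the log2 scale, against 0.002 over all 7078 genes of that level, and the 2 knockout columns differed by 0.021. Ccl3, Ccl4 and Ccl5 are such short transcripts (766, 660 and 532 bases). All 5 chemokines were lower in wild-type column 1 than in column 2. The log2 gaps were 0.20 (Ccl3), 0.19 (Ccl4), 0.12 (Ccl5), 0.27 (Ccl6) and 0.44 (Ccl9). Ccl6 and Ccl9 are not short transcripts (1440 and 3006 bases). Ccl9 belongs to the 3991 genes averaging at least 1000 normalized counts that had the longest transcripts. The median of wild-type column 2 minus column 1 over those genes was -0.046. The cause of the gaps in Ccl6 and Ccl9 was not tested.

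Ccl3 was higher in the knockout, and it was the 1 member of the 5 that passed the test. The test was limma on log2(normalized count + 1) over the 12872 genes that reached 20 reads in any column, with Benjamini-Hochberg adjustment and a threshold of 0.05. All 5 members met that read minimum in every column. Over all genes tested, 2.91% were called, 1.67% higher and 1.24% lower. edgeR called the same member, Ccl3, among 2.94% of all genes, and DESeq2 called Ccl3 and Ccl4, among 7.52% of the genes it gave an adjusted p. Of the other 4 members, Ccl5 and Ccl6 had 95% intervals that included equal levels. Those of Ccl4 and Ccl9 did not, but the intervals are not adjusted for the number of genes tested. An unadjusted limma p under 0.05 was found for 19.8% of all genes tested. The columns of the genotypes did not overlap for Ccl3, Ccl4 and Ccl9, higher in the knockout in each case, and 25.5% of all genes tested showed that pattern in that direction. The 5 log2 ratios had a median of 0.27, against -0.003 over all genes tested and 0.12 over the 276 abundant short transcripts above. Ccl6 and Ccl9 are too long for that class of short transcripts. Bulk RNA does not tell fewer expressing cells from less RNA per cell.

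**Figure D1:**
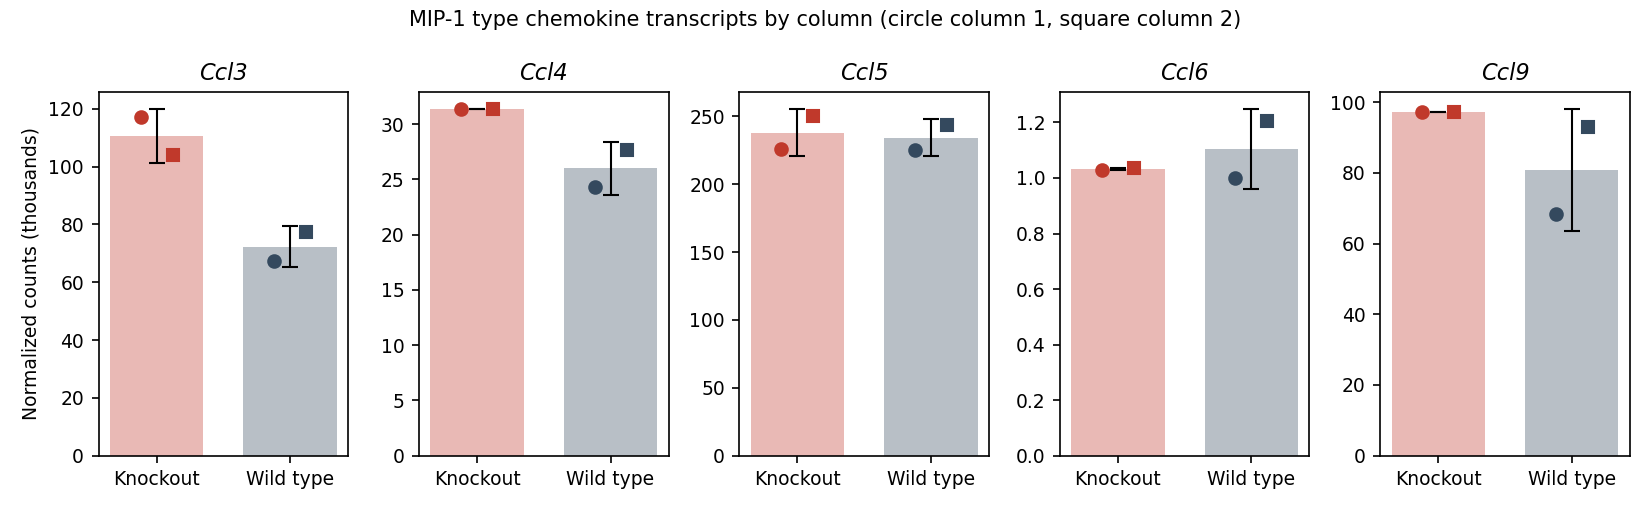
Normalized counts (axes in units of 1000) of each chemokine in the 2 knockout and 2 wild-type columns. Bars are means, error bars are SD (n = 2 columns) and points are columns. Both Ccl3 knockout columns (117113 and 104035) lie above both wild-type columns (67365 and 77268), whereas the Ccl5 and Ccl6 columns of the genotypes overlap.

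Ccl3 had 117113 and 104035 normalized counts in knockout columns 1 and 2, against 67365 and 77268 in wild-type columns 1 and 2. Even the lower knockout column stood well above the higher wild-type column. The log2 ratio of knockout to wild type was 0.61 (SE 0.09, limma adjusted p = 0.00537), a 1.53-fold difference with a 95% interval of 1.34 to 1.75. Of the 674 genes that averaged at least 20000 normalized counts, 5.04% (34) were called higher, and by size of ratio Ccl3 was number 3 among those. edgeR gave 0.61 (adjusted p = 0.00559). The call was lost when knockout column 1 was dropped (log2 ratio 0.53, limma adjusted p = 0.0928) or wild-type column 1 was (0.51, adjusted p = 0.0579). After correcting each column for GC content and transcript length the ratio was 0.44 (adjusted p = 0.0102).

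Ccl4, the partner of Ccl3 in many inflammatory settings, had 31335 and 31344 normalized counts in knockout columns, against 24303 and 27707 in wild-type columns. The knockout columns were nearly equal and both lay above wild type. The log2 ratio of 0.27 (SE 0.08, 95% interval 0.11 to 0.43) did not pass by limma (adjusted p = 0.0682) or edgeR (adjusted p = 0.0780), while DESeq2 called it (adjusted p = 0.0186). limma also called it without wild-type column 2 (0.37, adjusted p = 0.0192), while without wild-type column 1 the ratio was 0.18 (adjusted p = 0.287), and after the GC and length correction the ratio was 0.12 (adjusted p = 0.330). Per kilobase of transcript, Ccl3 exceeded Ccl4 3.22-fold and 2.86-fold in knockout columns, against 2.39-fold and 2.40-fold in wild-type columns. The balance between these neighbours thus lay further towards Ccl3 in both knockout columns. The log2 difference of the ratios was 0.34 (SE 0.09, n = 2 columns each) and is given as a description, since an exact permutation test of 2 columns against 2 cannot give a two-sided p under 0.333.

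Ccl5, an attractant of T cells and monocytes that interferon pathways also drive, was the most abundant member. It had 225898 and 250190 normalized counts in knockout columns, against 224932 and 243928 in wild-type columns. The columns interleaved, with 1 low and 1 high in each genotype. The log2 ratio was 0.02 (SE 0.09, limma adjusted p = 0.927), and its 95% interval of -0.18 to 0.22 corresponds to folds of 0.882 to 1.17. The 1.34-fold lower bound for Ccl3 lies outside that range, though the difference between the 2 genes' ratios was not tested.

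Ccl9 had 97192 and 97144 normalized counts in knockout columns, against 68508 and 92936 in wild-type columns. Wild-type column 2 lay close to the knockout, and wild-type column 1 was far below it. The log2 ratio of 0.28 (SE 0.11, 95% interval 0.05 to 0.52) did not pass (limma adjusted p = 0.173). It rested on which wild-type column was used, being 0.06 (adjusted p = 0.736) without column 1 and 0.50 (adjusted p = 0.0109) without column 2. After the GC and length correction it was 0.16 (adjusted p = 0.472).

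Ccl6 was the scarce member. It had 1029 and 1035 normalized counts in knockout columns, against 1001 and 1205 in wild-type columns, resting on 617 to 852 reads. The knockout columns fell between the wild-type columns. The log2 ratio was -0.09 (SE 0.11, 95% interval -0.33 to 0.15, limma adjusted p = 0.708).

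Levels of different genes were compared per kilobase of the longest annotated coding transcript. Ccl5 ranked highest, at 447451 ± 32287 normalized counts per kilobase in knockout and 440658 ± 25248 in wild-type columns (SD, n = 2 columns each). Ccl3 followed at 144353 ± 12073 in knockout and 94408 ± 9141 in wild type, then Ccl4 at 47484 ± 10.1 in knockout and 39401 ± 3647 in wild type. Ccl9 stood at 32325 ± 11.2 in knockout and 26854 ± 5746 in wild type, and Ccl6 at 717 ± 3.10 in knockout and 766 ± 100.1 in wild type. Within each genotype no 2 neighbours in this order had overlapping columns. The places of Ccl4 and Ccl9 depend on the annotated length of Ccl9, 3006 bases. If its transcripts were shorter than 2046 bases, Ccl9 would rank above Ccl4 in the knockout, and the same holds below 2049 bases in wild type.

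**Figure D2:**
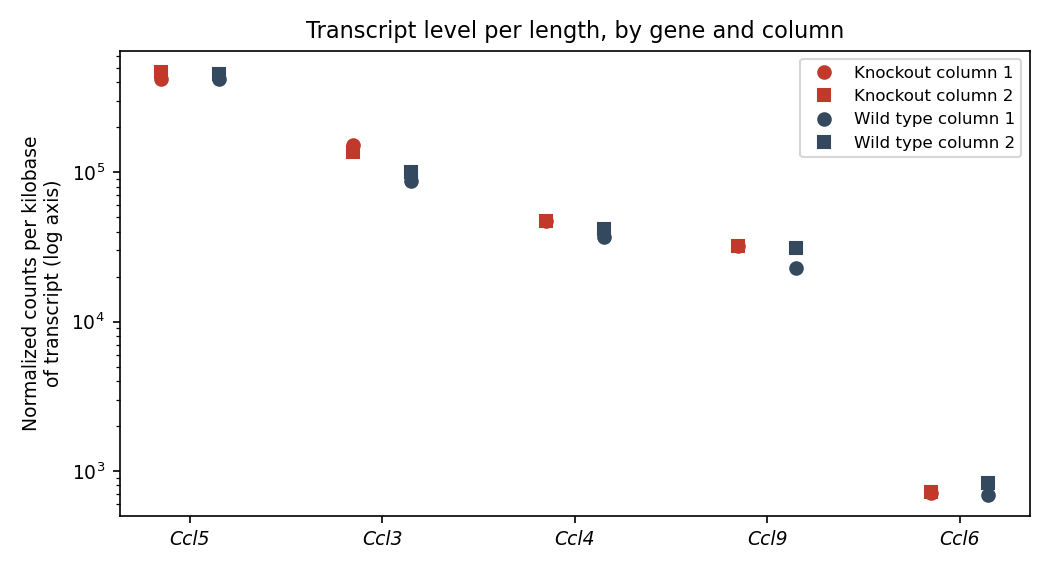
Normalized counts per kilobase of transcript on a log axis, for the 5 chemokines ordered by level, in each knockout and wild-type column. Ccl5 lies near 440658 per kilobase and Ccl6 under 837 in every column, and no neighbours in the order overlap within a genotype.

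As a share of the summed per-kilobase level of the 5 chemokines, Ccl3 made up 23.2% and 19.8% in knockout columns, against 15.4% and 15.9% in wild-type columns. Ccl5 made up 64.5% and 68.5% in knockout columns, against 74.0% and 72.4% in wild-type columns. Ccl4 took 6.92% to 7.21% in the knockout and 6.45% to 6.63% in wild type, and Ccl6 stayed at or below 0.132% in each column. The sum itself was 658035 and 686624 per kilobase in knockout columns and 571057 and 633116 in wild-type columns. The per-kilobase mix of these transcripts was thus richer in Ccl3 in both knockout columns, while Ccl5 still made up most of it. Shares are relative, so a larger Ccl3 share leaves less for the other members together. The values are RNA, and chemokine protein was not measured here. The neighbours Ccl9 and Ccl6 differed 45.3-fold and 45.0-fold per kilobase in knockout columns, against 32.8-fold and 36.9-fold in wild-type columns.

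The genes flanking the chemokines were examined next. Of the 11 genes of this stretch that passed the read minimum, members included, Ccl3 was called and the other 10 were not. Over all genes tested, 2.91% were called. Beyond Ccl5, Heatr9, which codes for a HEAT repeat protein, had 812 and 855 normalized counts in knockout columns, against 962 and 955 in wild-type columns (log2 ratio -0.20, SE 0.11, limma adjusted p = 0.332) and Taf15, an RNA-binding protein gene, had a log2 ratio of 0.05 (SE 0.08, adjusted p = 0.778), while the protease gene Mmp28 was scarce (-0.32, SE 0.49, adjusted p = 0.761). Beyond Ccl4, Wfdc17, a gene of the whey acidic protein family, had a log2 ratio of -0.12 (SE 0.10, adjusted p = 0.537), Wfdc18, of the same family, of -0.31 (SE 0.46, adjusted p = 0.753) and Heatr6 of -0.12 (SE 0.08, adjusted p = 0.399). Among the 6 flanking genes, 5 estimates lay below 0, and among the 5 members, that of Ccl6 did.

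**Figure D3:**
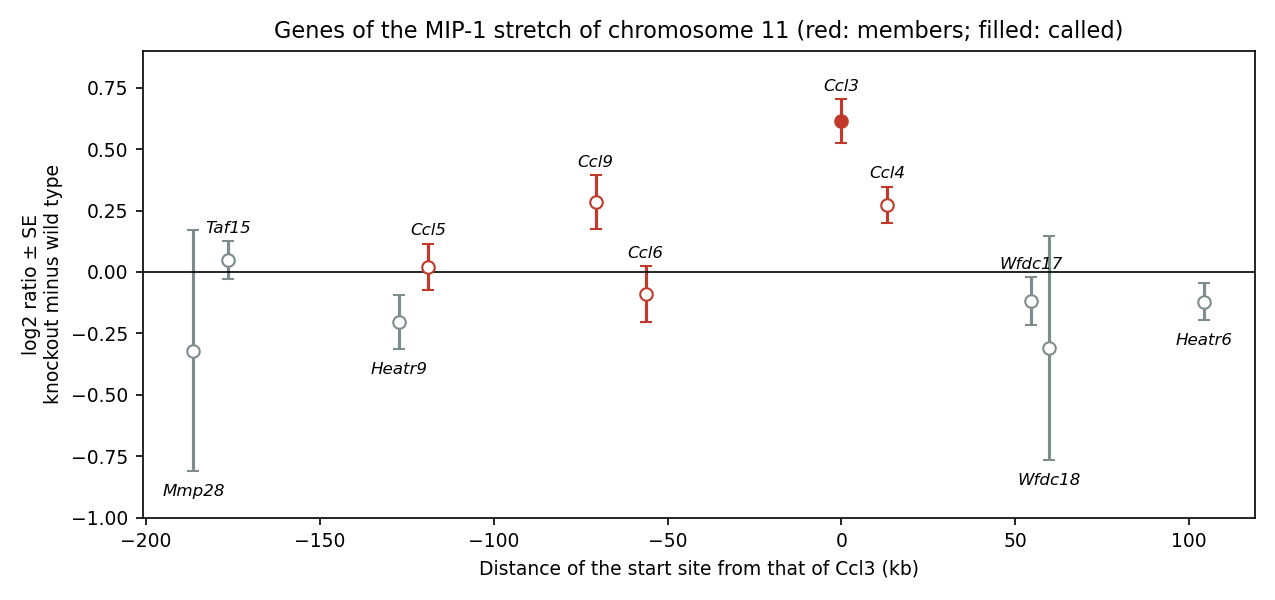
Log2 ratio of knockout to wild type (points, with SE bars from limma) against the distance in kb of each gene's start site from that of Ccl3, for the 5 chemokines (red) and the 6 flanking genes (grey). Ccl3 at 0.61 is the called gene, Ccl4 (0.27) and Ccl9 (0.28) lie above 0 and the flanking genes lie between -0.32 and 0.05.

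Receptors for chemokines of this kind were measured in the same cells. Of 5 receptor genes, 3 passed the read minimum and 0 were called by limma, edgeR or DESeq2, with 1 at an unadjusted limma p under 0.05. Over all genes tested, limma called 2.91%, and 19.8% had an unadjusted p under 0.05. Ccr1, the shared receptor of Ccl3, Ccl5 and Ccl9, had 898 and 1575 normalized counts in knockout columns, against 823 and 895 in wild-type columns. Knockout column 2 alone was high, and the log2 ratio of 0.47 (SE 0.19) did not pass (limma adjusted p = 0.180). Ccr3, best known on eosinophils, had 368 and 375 in knockout columns, against 389 and 417 in wild-type columns (-0.12, SE 0.15, adjusted p = 0.712). The atypical receptor gene Ccrl2 had a log2 ratio of 0.10 (SE 0.07, adjusted p = 0.494). The scavenging receptor Ackr2, which clears inflammatory CC chemokines, had at most 3.24 normalized counts in any column, and Ccr1l1 had at most 14.1.

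**Figure D4:**
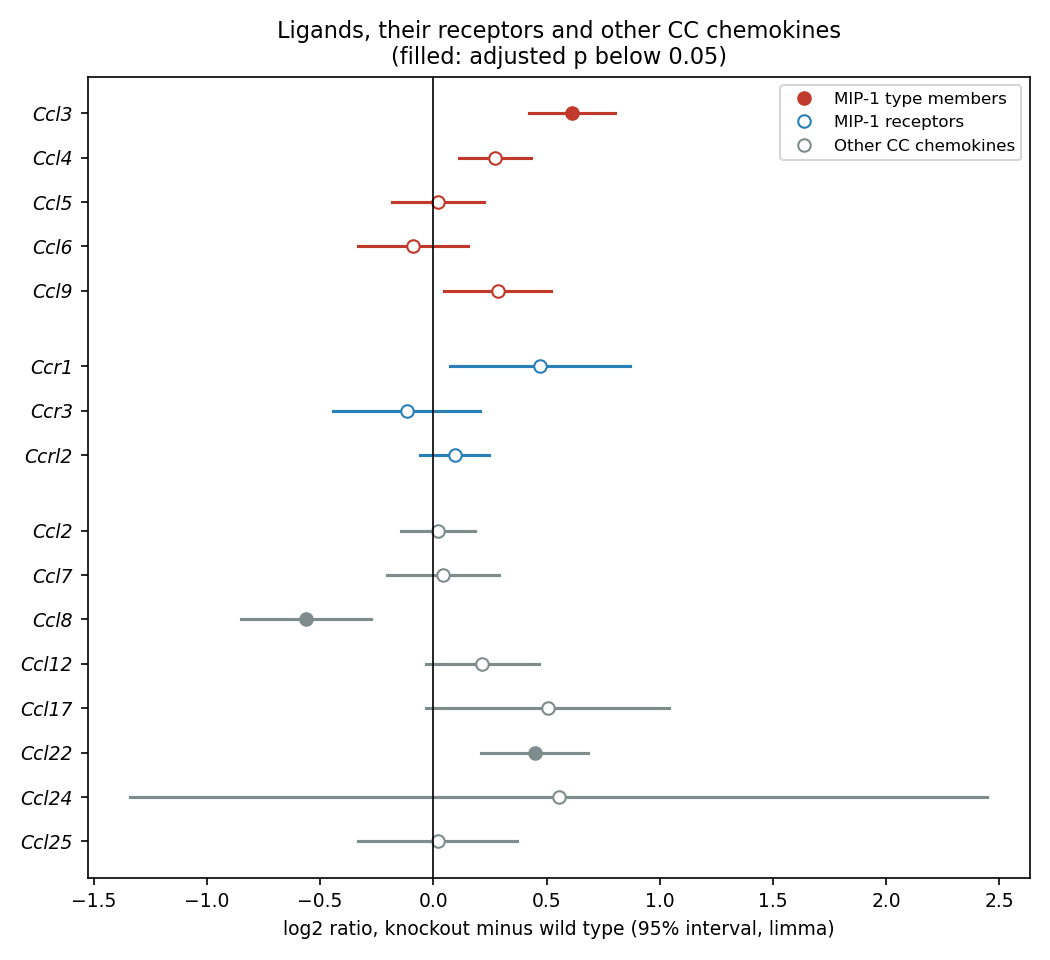
Log2 ratios of knockout to wild type with 95% intervals from limma for the 5 chemokines, the 3 receptor genes tested and the 8 other CC chemokines tested. Filled points have adjusted p below 0.05, namely Ccl3 (0.61), Ccl22 (0.45) and Ccl8 (-0.56).

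Among the other CC chemokines, 8 of 10 with a row passed the read minimum, with 1 higher, 1 lower and 6 not called. Over all genes tested, limma called 1.67% higher and 1.24% lower. Their median log2 ratio was 0.13. Ccl22, a ligand of Ccr4 on regulatory and helper T cells, had 44292 and 55467 normalized counts in knockout columns, against 40794 and 32385 in wild-type columns (log2 ratio 0.45, SE 0.11, limma adjusted p = 0.0445). Ccl8, a ligand of Ccr8 in mice, had 504 and 613 in knockout columns, against 785 and 861 in wild-type columns (-0.56, SE 0.13, adjusted p = 0.0404). Each call was lost when knockout column 1 or either wild-type column was dropped, and that of Ccl22 also when knockout column 2 was. DESeq2 gave Ccl8 no adjusted p and did not call Ccl22, whose call TMM scaling, a minimum of 100 reads and the GC and length correction also ended. Neither was called with no read minimum. The other 6 had log2 ratios between 0.02 and 0.55. Of 10 tested genes of the CXC and CX3C families, 3 rose by limma and 7 were not called, with a median log2 ratio of 0.18. DESeq2 called Cxcl2 and Cxcl11 (DESeq2 adjusted p = 0.0484) and gave Cxcl1 and Cxcl3 no adjusted p. The 3 genes that rose by limma were the neutrophil attractants Cxcl1 (1.11, SE 0.17, limma adjusted p = 0.00565), Cxcl2 (0.63, SE 0.08, adjusted p = 0.00350) and Cxcl3 (0.82, SE 0.17, adjusted p = 0.0244). That of Cxcl2 stood in every alternative, that of Cxcl1 was lost when wild-type column 1 was dropped, and that of Cxcl3 when knockout column 2 or wild-type column 1 was and after the GC and length correction.

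Genes known to control these transcripts were set against the 2.91% of all genes tested that limma called. Lists this short can hold 0 calls at that share. Of 20 transcription factors and inhibitors that act on inflammatory chemokine genes, 0 were called by limma or edgeR. An unadjusted limma p under 0.05 was found for 1, and DESeq2 called 1, Fos. DESeq2 called 7.52% of the genes it gave an adjusted p. Fos, an AP-1 subunit, had 14996 and 15484 normalized counts in knockout columns, against 12381 and 13534 in wild-type columns (log2 ratio 0.24, SE 0.07, limma adjusted p = 0.0873). The NF-kB gene Nfkb1 had a log2 ratio of 0.13 (SE 0.07, adjusted p = 0.327), and the list's median was 0.09. Of 10 genes of cytokine mRNA decay, 0 were called by limma, edgeR or DESeq2, and 2 had an unadjusted limma p under 0.05. Those were Hnrnpd (0.23, SE 0.07, adjusted p = 0.104) and Elavl1 (0.20, SE 0.07, adjusted p = 0.137), which code for proteins that bind AU-rich elements. Zfp36, whose product destabilises AU-rich cytokine mRNAs, had 65176 and 70847 normalized counts in knockout columns, against 65629 and 64819 in wild-type columns (0.06, SE 0.07, adjusted p = 0.708).

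Downstream and extracellular partners were set against the same share of 2.91% called by limma, at which short lists can hold 0 calls. Of 12 genes of chemokine receptor signalling, 0 were called by limma, edgeR or DESeq2, and 3 had an unadjusted limma p under 0.05. All 3 estimates were below 0: the arrestin gene Arrb1 (-0.21, SE 0.07, adjusted p = 0.113), the receptor kinase gene Grk6 (-0.25, SE 0.09, adjusted p = 0.141) and the lipid kinase gene Pik3cd (-0.21, SE 0.07, adjusted p = 0.123). Of 11 genes for the binding and trimming of chemokines outside the cell, 0 were called by limma, edgeR or DESeq2, and 3 had an unadjusted limma p under 0.05. They were the proteoglycan gene Sdc4 (0.20, SE 0.07, adjusted p = 0.138), the macrophage elastase gene Mmp12 (0.19, SE 0.07, adjusted p = 0.158) and Dpp4 (-0.85, SE 0.39, adjusted p = 0.246), whose product clips the amino end of Ccl5 and had 34.0 to 89.3 normalized counts. These lists were set against 19.8% of all genes with an unadjusted limma p under 0.05.

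Genes whose 4 columns moved most like each member were found by Euclidean distance between log2 values centred on each gene's mean, over the 10650 other genes that reached 100 reads in any column. For Ccl3 they were Gm8369 (distance 0.0704), the neutrophil chemoattractant Cxcl2 (0.0749) and the alarmin Il33 (0.0822). Cxcl2 had 50317 and 47779 normalized counts in knockout columns, against 29237 and 34487 in wild-type columns, with wild-type column 1 lowest, as in Ccl3. For Ccl4 they were Tubb4b (distance 0.0114), Mrps18b and Ppp1r11, for Ccl5 Asna1 (0.00928), Zfp787 and Lsm14b, for Ccl6 Atp6v1g1 (0.0199), Hdac10 and Gss, and for Ccl9 Lyar (0.00658), Npy and A430093F15Rik. Among the members, Ccl4 and Ccl9 lay closest (distance 0.178), and Ccl3 lay 0.362 from Ccl4. Cxcl2 was picked for its small distance, so its likeness to Ccl3 across the columns follows from that choice. A distance over 4 columns describes these columns only.

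Of 12 genes of classical activation, 2 rose by limma (Il6 and Il12b) and 10 were not called, against 1.67% called higher over all genes tested. Among genes averaging at least 20000 normalized counts, a level that all 12 but Cd80 reached, the share called higher was 5.04%. The median log2 ratio was 0.21. edgeR also called Ptgs2 (log2 ratio 0.37, edgeR adjusted p = 0.0235), and DESeq2 called 4, namely Il6, Il1b, Tnf and Ptgs2. edgeR called 2.94% of all genes, and DESeq2 called 7.52% of the genes it gave an adjusted p. Il6, at 112232 and 106768 normalized counts in knockout columns against 77080 and 77678 in wild-type columns, rose by 0.50 (SE 0.08, limma adjusted p = 0.00565), a call lost when knockout column 1 was dropped. Tnf had a log2 ratio of 0.29 (SE 0.09, adjusted p = 0.0833), Il12b of 0.53 (SE 0.12, adjusted p = 0.0333) and Nos2 of -0.26 (SE 0.10, adjusted p = 0.187). The call of Il12b was lost by DESeq2, with no read minimum, after the GC and length correction and when knockout column 1 or either wild-type column was dropped.

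Markers of other cells that make these chemokines were summed over each list. T and NK cells, known sources of Ccl5, had 6 markers with a row, which summed to 29 and 38 normalized counts in knockout columns and 36 and 59 in wild-type columns, with Cd3d and Cd8a at 0 in each column. Ccl5 had at least 224932 normalized counts in each of those columns. The 4 B cell markers summed to 16 and 30 in knockout columns and 24 and 25 in wild-type columns. The 5 markers of mast cells, basophils and eosinophils summed to 134 and 178 in knockout columns and 193 and 137 in wild-type columns, with Prg2 at 0. The 7 neutrophil markers summed to 2936 and 3252 in knockout columns and 5412 and 4390 in wild-type columns, mostly Csf3r, which was lower in the knockout (log2 ratio -0.71, SE 0.11, limma adjusted p = 0.00565).

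Some markers of other cell types also differed between the genotypes, where limma called 2.91% of all genes tested. The 8 dendritic cell markers summed to 13548 and 14011 in knockout columns and 9921 and 9124 in wild-type columns. Nearly all of it came from Xcr1 and Ccr7, and Siglech was at 0. Flt3 and Zbtb46 did not reach the read minimum. Flt3 had 2.52 and 9.07 in knockout columns, against 14.6 and 11.3 in wild-type columns. Zbtb46 had 0 and 18.1 in knockout columns, against 8.11 and 5.66. Of the 5 tested, Xcr1 (0.51, SE 0.07, limma adjusted p = 0.00537) and Ccr7 (0.64, SE 0.10, adjusted p = 0.00565) rose and 3 were not called. Of those, Batf3 (-0.84, SE 0.32, adjusted p = 0.168) and Dpp4 (-0.85, SE 0.39, adjusted p = 0.246) had columns that lay apart in the other direction. The 8 osteoclast markers summed to 4371 and 4142 in knockout columns and 2965 and 3356 in wild-type columns, and of the 6 tested Dcstamp, a cell-fusion gene, rose (0.64, SE 0.09, adjusted p = 0.00537). The other 5 were not called, with 4 estimates above 0 and that of Mmp9 below it (-0.50, SE 0.22, adjusted p = 0.229). The 10 stromal markers summed to 456 and 366 in knockout columns and 716 and 806 in wild-type columns. Of the 7 tested, 2 were called, both lower. Col1a1 had 2.52 and 3.02 in knockout columns, against 149 and 136 in wild-type columns (limma adjusted p = 0.00116). Col1a2 was at 0 in the knockout (adjusted p = 0.0035). The other 5 were not called, and of these Lum alone had an estimate above 0 (0.19, SE 0.20, adjusted p = 0.644). Lum had 318 and 260 in knockout columns, against 214 and 296 in wild-type columns. The macrophage genes Mertk (-0.48, SE 0.10, adjusted p = 0.0285) and Itgam (-0.37, SE 0.09, adjusted p = 0.0419) were lower in the knockout, the other 6 macrophage markers not being called. Dropping knockout column 1 ended the calls of Csf3r, Xcr1, Dcstamp, Mertk and Itgam. Dropping wild-type column 1 ended those of Csf3r, Dcstamp, Mertk, Itgam, Col1a1 and Col1a2, and dropping knockout column 2 those of Mertk and Itgam, while that of Ccr7 stood in every alternative. The Itgam call was also lost after the GC and length correction and with no read minimum. The part of these differences in the Ccl3 result was not tested.

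**Figure D5:**
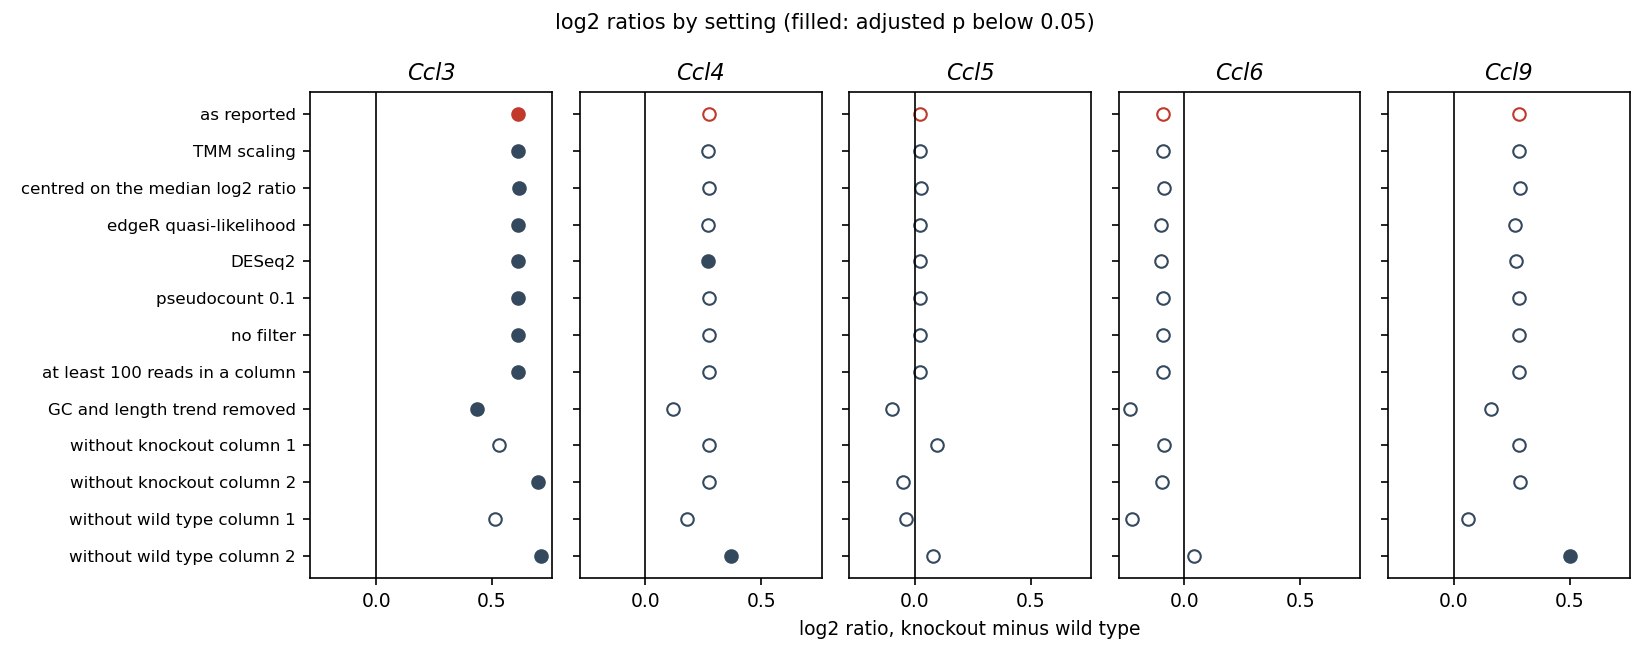
Log2 ratio of each chemokine between knockout and wild type as reported (red) and under other scalings, tests, filters and left-out columns (dark). Filled points have adjusted p below 0.05. Ccl3 lies between 0.44 and 0.71 throughout, while Ccl9 runs between 0.06 and 0.50 depending on which wild-type column is left out.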

How the data were processed

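Directional mRNA libraries were sequenced, per the labels' protocols. The deposited signal is a normalized count for each gene, which the authors obtained by dividing reads by a size factor. The values show this: 100% are whole multiples of a column's step to within 0.01 reads, and 1 read was worth 1.26 to 1.62 normalized counts. Mates of a pair seem to be counted apart, since 71.9% to 74.6% of low counts were even. The submitters' processing notes name mm10 and StringTie and give them no role. Which aligner, counter, strand setting and normalization were used is not given in the sources used here. The doses of M-CSF in the labels contradict each other and are left out. Table columns lacking KO in their heading were read as wild type.

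Of 17271 rows, 1 has no symbol and was dropped (at most 0.0366% of a column). Log2 ratios (knockout minus wild type) were taken on log2(normalized count + 1), a scale that understates low genes. limma 3.58.1 was fitted with an intensity trend to all 4 columns (2 residual and 12.2 prior degrees of freedom). Other settings were edgeR 4.0.16 and DESeq2 1.42.0 on recovered reads, TMM scaling, median centring, a pseudocount of 0.1, no read minimum, a minimum of 100 reads, a correction for GC content and length (known for 88.5% of genes), a block for column number, and dropping each column, where the single column left in a genotype is assumed to vary as those of the other do. Annotation was GENCODE M21 (GRCm38), and each gene was represented by its longest coding transcript. Tested on simulated data for knockout against wild type (12612 genes), limma found 72 of 100 genes with a 1.5-fold and 100 of 100 with a 2-fold change and made 12 false calls. Software was Python 3.11.15 with pandas 2.3.3 and matplotlib 3.10.9, and R 4.3.3.

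Members and lists were chosen with earlier results of these data known. The rule named the 5 members, called genes of the pathway and CC chemokine lists, Ccr1, Ccr3, up to 3 flanking genes on each side, the 3 nearest profiles of each member, Nos2, Tnf and Il12b. Other genes were named after their values were seen. Some items under this rule are not reported here.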

Additional observations from a re-analysis of the deposited data

How the results depend on the processing

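Of 65 combinations of a member and an alternative, 61 kept the direction of the log2 ratio. Ccl5 was -0.097 after the GC and length correction, and the cause was not tested. DESeq2 and the block on the column number each called 2 members, Ccl3 and Ccl4 (Ccl4 0.27 in both, adjusted p = 0.0186 and 0.0391). Deviations of knockout column 1 and wild-type column 1 from their genotype means correlated at -0.0954. With 2 columns per genotype, this value cannot show whether same-numbered columns shared a batch or preparation. Genes called numbered 375 as reported, 222 without a filter, 213 after the correction and 602 with the block. With 1 column left out, log2 ratios ran from 0.51 to 0.71 for Ccl3, 0.18 to 0.37 for Ccl4, -0.052 to 0.095 for Ccl5, -0.22 to 0.044 for Ccl6 and 0.064 to 0.50 for Ccl9. Ccl5 was -0.052 without knockout column 2 and -0.037 without wild-type column 1, and Ccl6 was 0.044 without wild-type column 2. Members called ran from 0 (without wild-type column 1 or knockout column 1) to 3 (without wild-type column 2), and genes called from 21 (without wild-type column 1) to 620 (without wild-type column 2), with 23 without knockout column 1 and 167 without knockout column 2. The Ccl3 to Ccl4 log2 difference, added after the data were seen, ran from 0.26 to 0.43. Depth limits Ccl6 most, at 617 reads in its lowest column.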
